A study of Mus musculus with 23 samples.

Results

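The genes described here encode the proteins of the cytosolic ribosome. They were chosen by name as the rows of the count table whose symbol is Rpl or Rps with a number and at most a closing a, l or x, together with Rplp0, Rplp1, Rplp2 and Rpsa, which gave 81 of 24062 genes. RNA sequencing of polyadenylated RNA covered gastrocnemius muscle and fat (labelled IAT) of mice aged 8 to 10 months on a mixed 129Sve/C57BL/6 background. The wild-type groups (WT) had 4 muscle and 4 fat libraries. The HL1002P groups (BubR1 H/L1002P, a hypomorphic allele over the L1002P missense allele) had 4 and 4, and the HH groups (BubR1 H/H, 2 hypomorphic alleles) had 3 muscle and 4 fat libraries. BubR1, encoded by Bub1b, is a kinase of the mitotic checkpoint, and the series describes the mutants as progeroid and as models of mosaic variegated aneuploidy.

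A cytosolic ribosome joins a small subunit, which reads the messenger RNA, to a large subunit, which forms the peptide bond. Nearly every subunit protein is encoded by 1 widely expressed gene, and the products are needed in fixed proportion, so the genes are usually transcribed together. Their messenger RNAs commonly begin with a run of C and T letters, the 5′ terminal oligopyrimidine tract, through which growth signalling controls their translation. A few genes have a second copy with a narrow pattern: Rpl3l replaces Rpl3 in heart and skeletal muscle fibres, and Rpl10l and Rpl39l are known from testis. In lymphoid tissue, activated and dividing cells carry many ribosomes, whereas a mature fat cell is mostly lipid.

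Library totals ran from 22.6 M to 58.8 M counts. Between 1.98% and 2.67% of a muscle library, and between 2.76% and 11.2% of a fat library, fell on the 81 genes. Levels below are CPM (counts per M of library size) scaled within a tissue by the TMM method. Levels compared between genes are also divided by transcript length in kb. The labels number the libraries but tie none to a mouse, so the p-values measure the spread between these samples, which may be technical. Bub1b was 0.726 to 0.952 CPM in the WT muscle libraries, 0.181 to 0.273 in HL1002P and 0.326 to 0.520 in HH, with no overlap. In fat it was 7.08 to 11.6 CPM in WT, 6.12 to 22.1 in HL1002P and 5.96 to 14.3 in HH, so Bub1b did not separate the fat genotypes and those groups are named as labelled. Summed muscle fibre markers were at least 156400 CPM in each muscle library. In fat they reached 17090 CPM in WT 3, 16427 in HH 1 and 6564 in HL1002P 4, against 43.0 to 1679 CPM in the other fat libraries. Xist, which marks female cells, was detected above 5 CPM in 2 WT, 1 HL1002P and 1 HH fat library, and fits with sex as a covariate are given where they change a count by over 1.5 times.

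All 81 genes were found in the GENCODE vM21 annotation of GRCm38 (mm10), 32 for the small and 49 for the large subunit. They lie on 19 chromosomes, at most 14 on any of them. In all 6 groups the highest level per kb belonged to Rplp1, which encodes an acidic protein of the large subunit's stalk, at 1357 CPM per kb in WT muscle and 2520 in WT fat. The median member stood at 264 CPM per kb in WT muscle and 695 in WT fat. Rpl26 and Rpl10l were listed at 0 in every library, which allows up to 3 counts in each. Rpl30 had 186 counts over the 23 libraries, Rpl34 1039, Rps27 1270 and Rpl39l 1813. Rpl26, Rpl30, Rpl34 and Rps27 encode constitutive ribosomal proteins. Near-identical copies of such genes can divide or remove their reads, the treatment of reads with several matches is not given in the sources used here, and its part in these low values was not tested. Levels of these members and of the paralog Rps4l are therefore uncertain.

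**Figure D1:**
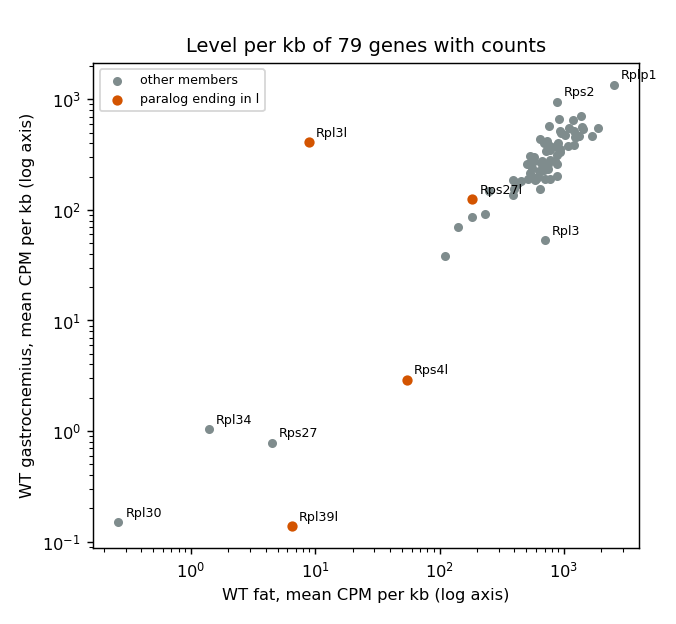
Mean level per kb of each of the 79 genes with counts in the 4 WT fat libraries (x) and the 4 WT gastrocnemius libraries (y), both axes logarithmic. Orange points are paralogs ending in l. Most genes form 1 cloud, Rpl3l stands above it at 410 CPM per kb in muscle, and Rpl3 below it at 53.5.

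The tissue comparison asks how the same genes stood in the muscle and fat of WT mice. On the 23-library TMM scale the ribosomal protein genes lay near balance between the tissues: the median log2 difference, muscle minus fat, was -0.07 for the 79 members tested and -0.30 for all genes. With edgeR's quasi-likelihood test at a Benjamini-Hochberg adjusted p under 0.05, 11 members were higher in muscle and 11 lower, where 31.9% of all genes were called higher and 41.6% lower. The balance depends on the scaling. With total counts and no TMM, 1 member was higher and 73 lower and the median was -1.27, while the median of all genes moved to -1.47.

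Muscle had less Rpl3 and more Rpl3l, which both encode the large-subunit protein next to the peptidyl transferase centre. Rpl3 (GRCm38 chromosome 15, 80077791 to 80091868, 10 exons) was 2.47 log2 units lower in muscle (5.53-fold, SE 0.27, edgeR adjusted p = 1.07e-07). Rpl3l (chromosome 17, 24727820 to 24736143, 10 exons) was 6.77 higher (SE 1.57, adjusted p = 6.83e-04). The other members with the largest differences toward muscle were Rps2 (log2 difference 1.38), Rpl4 (0.86), Rplp0 (0.78), which carries the stalk, and Rpl24 (0.70). With total counts Rpl4, Rplp0 and Rpl24 changed sign, at -0.34, -0.41 and -0.48, and Rpl3l was then the 1 member higher in muscle. Toward fat the largest were Rpl39l (-4.30), Rps4l (-2.98), Rps27 (-1.23) and Rps19 (-0.88), a small-subunit protein needed for red blood cell formation.

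In fat labelled HL1002P 55 of the 79 ribosomal protein genes tested were higher than in WT fat, a count that rested on few libraries. The summed level of the 81 genes was 31863, 57925, 61808 and 51070 CPM in the WT libraries 1 to 4. It was 110110, 99472, 73573 and 65216 CPM in the HL1002P libraries and 63026, 63979, 84617 and 65501 in the HH libraries. All 4 HL1002P and all 4 HH libraries lay above all 4 WT libraries, and the HL1002P and HH ranges overlapped. As a share of all counts the genes took 4.74% ± 1.46 in WT, 9.07% ± 2.06 in HL1002P and 7.20% ± 1.30 in HH (SD, n = 4 each). In bulk tissue, fewer cells of a type and less RNA per cell cannot be told apart.

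**Figure D2:**
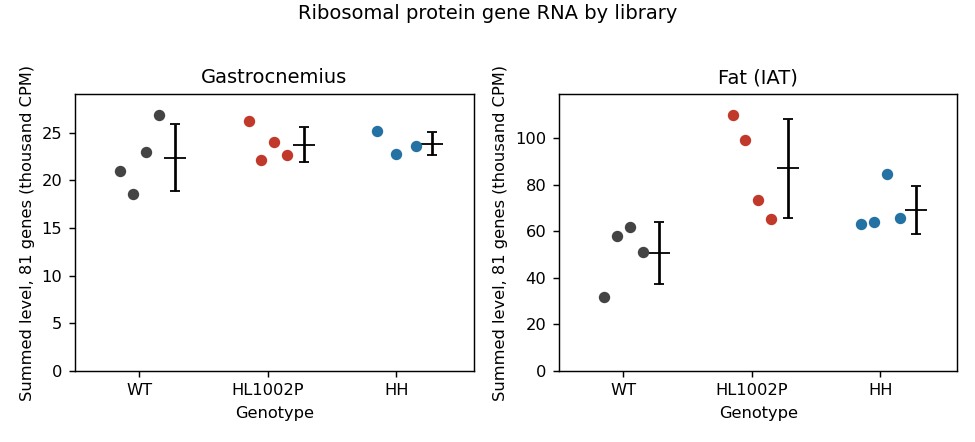
Summed level of the 81 genes (CPM divided by 1000) in each library of gastrocnemius (left) and fat (right), 1 dot a library, with mean and SD of each genotype beside the dots. In muscle all 11 libraries sit between 18.6 and 26.9 and the genotypes overlap. In fat the WT libraries sit between 31.9 and 61.8 and the HL1002P libraries between 65.2 and 110.

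Beside these 55 genes, 0 were lower in HL1002P than in WT and 24 did not pass, where 17.3% of all genes were called higher and 14.5% lower. The median log2 fold change of the members was 0.75 and that of all genes -0.07. Excluding the 5 paralogs ending in l, 75 of 75 tested genes had a positive fold change (46.2% of all genes), from 0.39 for Rpl29 to 1.18 for Rpl13a and quartiles of 0.67 and 0.85. In 44 members the HL1002P and WT libraries did not overlap, with HL1002P higher, which holds for 15.1% of all genes.

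Rpl13a (chromosome 7, 45125558 to 45128761, 8 exons), a large-subunit protein also known for silencing inflammatory messenger RNAs in myeloid cells, had the largest rise. It stood at 512, 1046, 1117 and 851 CPM in WT fat, 2464, 2367, 1701 and 1457 in HL1002P and 1410, 1420, 2024 and 1445 in HH. Both mutant groups lay wholly above WT. The log2 fold change of HL1002P was 1.18 (2.27-fold, SE 0.27, adjusted p = 0.0124), and it stayed called in all 8 fits that left out 1 library. Rps24, a small-subunit protein, measured 509, 987, 1098 and 857 CPM in WT, 2492, 2000, 1599 and 1321 in HL1002P and 1196, 1266, 1791 and 1263 in HH. All 4 HL1002P libraries lay above all 4 WT libraries, with a log2 fold change of 1.10 (SE 0.27, adjusted p = 0.0156).

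The next members by size were Rps15a (log2 fold change 1.04), Rpsa (1.03), Rpl12 (1.01) and Rps3 (0.98), with adjusted p from 0.0193 to 0.0290. Rpsa is the laminin receptor precursor, a small-subunit protein that also occurs at the cell surface, and Rps3 lies at the messenger RNA entry channel and has a role in DNA repair. Rpsa measured 883, 1743, 1856 and 1563 CPM in WT and 3956, 3551, 2797 and 2063 in HL1002P, with no overlap. By subunit, 27 of 32 small-subunit genes and 28 of 47 large-subunit genes passed, with median log2 fold changes of 0.81 and 0.70. The difference between the subunits was not tested. All 4 genes of the stalk, Rplp0, Rplp1, Rplp2 and Rpl12, which recruits the GTPases of translation, passed.

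Among the 20 members outside the paralogs that did not pass, 11 had an adjusted p between 0.0504 and 0.0658. The lowest fold changes belonged to Rpl29 (0.39, adjusted p = 0.134), Rpl30 (0.39, adjusted p = 0.569), Rpl24 (0.42, adjusted p = 0.109) and Rpl41 (0.47, adjusted p = 0.130). Rpl29 was 298, 497, 442 and 454 CPM in WT and 674, 640, 459 and 443 in HL1002P, so the groups overlapped.

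The number of calls rested on few libraries although the direction did not. Without HL1002P 1 the count of 55 fell to 1, without HL1002P 2 to 4, without WT 1 to 5, without WT 4 to 17, without WT 2 to 28 and without HL1002P 3 to 34, while the median stayed between 0.60 and 0.91 in all 8 such fits. Calls among all genes also fell in the fits just named, from 5167 to 2023, 2111, 2332, 4234, 3116 and 2448, in that order. The count rose to 65 without WT 3 and to 72 without HL1002P 4, beside 5665 and 7018 of all genes. DESeq2 called 71 members, 70 higher and 1 lower, beside 6707 of all 16266 genes. With sex as a covariate 23 members passed, beside 4455 of all genes. Without the 3 fat libraries that held the most muscle fibre RNA 69 members passed, 68 of them higher, beside 7305 of all genes.

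**Figure D3:**
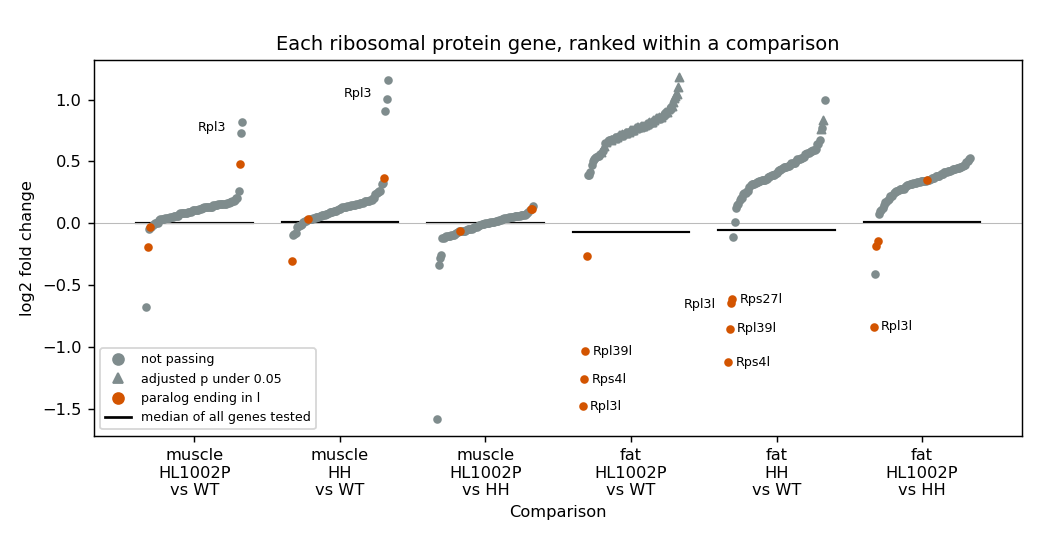
Log2 fold change of each tested gene in the 6 genotype comparisons, ranked from left to right within a comparison. Triangles passed edgeR's test at an adjusted p under 0.05, orange marks paralogs ending in l, and the black bar is the median of all genes tested. In HL1002P against WT fat all genes other than the paralogs lie above 0, and the 4 paralogs tested lie below it.

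The letters around the start of transcription are shown for genes that moved together in fat and for paralogs that did not. RefSeq start windows (GRCm38.p6) matched 60 of the 81 genes by symbol, with 72 windows in all, and held none for Rpl3 and Rpl8. Each line runs from 20 bases before the annotated start to 25 from it, with the longest unbroken run of C and T in capitals.
Rpl13a (chr7:45128721-45128765, minus strand): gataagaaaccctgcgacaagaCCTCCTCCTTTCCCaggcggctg
Rps24 (chr14:24490658-24490702, plus strand): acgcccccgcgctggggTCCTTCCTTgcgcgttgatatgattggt
Rps15a (chr7:118116123-118116167, minus strand): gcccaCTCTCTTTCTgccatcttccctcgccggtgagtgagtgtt
Rpl12 (chr2:32961692-32961736, plus strand): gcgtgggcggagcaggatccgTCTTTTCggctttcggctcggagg
Rpsa (chr9:120127746-120127790, plus strand): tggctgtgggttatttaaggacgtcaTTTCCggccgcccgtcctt
Rps3 (chr7:99483685-99483729, minus strand): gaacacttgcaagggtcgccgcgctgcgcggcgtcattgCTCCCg
Rpl4 (chr9:64173367-64173411, plus strand): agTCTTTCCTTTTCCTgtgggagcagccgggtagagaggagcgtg
Rps27l (chr9:66946066-66946110, plus strand): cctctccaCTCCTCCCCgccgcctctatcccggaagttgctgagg
Rpl39l (chr16:10170208-10170252, plus strand): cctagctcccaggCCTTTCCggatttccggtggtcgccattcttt
Rpl3l (chr17:24727806-24727850, plus strand): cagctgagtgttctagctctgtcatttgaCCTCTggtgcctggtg
Rpl13a had a run of 14 bases, Rps24 a run of 9 and Rps15a a run of 10. Runs were shorter in Rpl12, at 7, and in Rpsa and Rps3, at 5 each, and all of these rose. Among the paralogs that did not rise, Rps27l had a run of 9, Rpl39l of 7 and Rpl3l of 5. Whether run length went with the fold change was not tested. Rps24, Rps27l and Rpl3l have a second window, which is not printed. Over the 72 windows the median longest run in these 45 bases was 7, against 5 over all 32851 windows, and 44.4% of them held a run of 8 or more, against 17.7%. The letters CTTTCC occurred on the sense strand between 25 bases before and 50 after the start in 26.4% of the windows and in 3.5% of all. CCGGAAG, the core of sites for Ets factors, occurred on either strand of the full 300 bases in 36.1% and in 8.86% of all. These matches describe letters and not binding. CTCTTTC, which can overlap CTTTCC and was counted separately, was found near the start on the sense strand in 18.1% against 1.01%.

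In fat labelled HH few of the genes passed the test against WT. Of 79 members, 2 were higher than in WT and 0 lower, where 12.3% of all genes were called higher and 8.59% lower. The median log2 fold change was 0.40 against -0.06 for all genes, and 74 members were positive, against 46.2% of all genes. Rpl13a was 0.84 higher (SE 0.27, adjusted p = 0.0482) and Rpl8, a large-subunit protein near the peptidyl transferase centre, 0.76 higher (SE 0.23, adjusted p = 0.0385). Rpl8 measured 491, 785, 839 and 713 CPM in WT, 979, 1176, 1617 and 1017 in HH and 1486, 1380, 1274 and 982 in HL1002P, with both mutants wholly above WT. In 22 members HH lay wholly above WT, which holds for 15% of all genes. DESeq2 called 11 higher and 2 lower, beside 5210 of all 16266 genes, where edgeR called 3391. With sex as a covariate, or with the compared groups alone, edgeR called 0 members, beside 2484 and 2661 of all genes. The count was also 0 without WT 1, WT 2, WT 4, HH 2 or HH 3 and 4 without WT 3 or HH 1. Calls among all genes were 829 to 2536 in the former fits, and 4170 and 3732 in the latter.

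HL1002P and HH were compared with the same WT libraries, so the 2 comparisons are not independent. Both genes called in HH were among the 55 called in HL1002P. Compared directly, HL1002P against HH in fat gave 0 calls among the 79 members with edgeR (1 at an unadjusted p under 0.05, 0 with DESeq2). Among all genes 0% were called and 3.29% had an unadjusted p under 0.05. The median was 0.34 for the members and 0.01 for all genes. Rpl29 had the smallest p (log2 fold change 0.50, SE 0.19, adjusted p = 0.999) and did not overlap, at 394, 364, 421 and 391 CPM in HH against at least 443 in HL1002P. Rpl22 was next, with a log2 fold change of 0.47 (adjusted p = 0.999). Lowest were Rpl34, at -0.41, and Rpl3l, at -0.84, neither passing.

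Markers of lymphocytes moved with the ribosomal protein genes in fat. The summed level of 11 B cell markers was 27.3, 622, 470 and 294 CPM in the WT libraries, 3651, 3682, 3138 and 1262 in HL1002P and 1712, 2141, 3113 and 1649 in HH. None of the 11 was at 0 in any fat library. All 11 were higher in HL1002P, with a median log2 fold change of 3, and 10 of 11 in HH, with 2.34. Of 12 T cell markers, 12 were higher in HL1002P and 10 in HH, with sums of 96.9 to 367 CPM in WT, 692 to 1383 in HL1002P and 667 to 1401 in HH. Of 7 tested lymph node stroma markers, 6 were higher in each mutant, with sums of 22.6 to 305, 615 to 918 and 629 to 881 CPM, and Ccl21a was at 0 throughout.

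The lowest sum within WT belonged to WT 1 for both the ribosomal and the B cell genes, and within HL1002P to HL1002P 4 for both. Within HH the lowest was HH 1 for the ribosomal and HH 4 for the B cell genes. The highest was WT 3 against WT 2, HL1002P 1 against HL1002P 2, and HH 3 for both. Of 13 fat cell markers 6 were lower and 0 higher in HL1002P, where 14.5% of all genes were lower, and 0 were lower and 1 higher in HH. Their sums were 47805, 48909, 25542 and 25664 CPM in WT, 19898, 17899, 13514 and 25773 in HL1002P and 36258, 15276, 16442 and 27568 in HH. Of 10 endothelial markers 6 fell in HL1002P and 4 in HH. Of 11 macrophage markers 1 rose in HL1002P and 0 in HH (4 at an unadjusted p under 0.05). With the mean log2 level of the lymphocyte markers as a covariate, the median of the members was -0.13 in HL1002P and -0.36 in HH, with 0 calls among members and 0 among all genes. The covariate is itself different between the genotypes, so the 2 cannot be told apart in that fit, and the part of lymphocyte RNA in the ribosomal rise was not tested further.

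**Figure D4:**
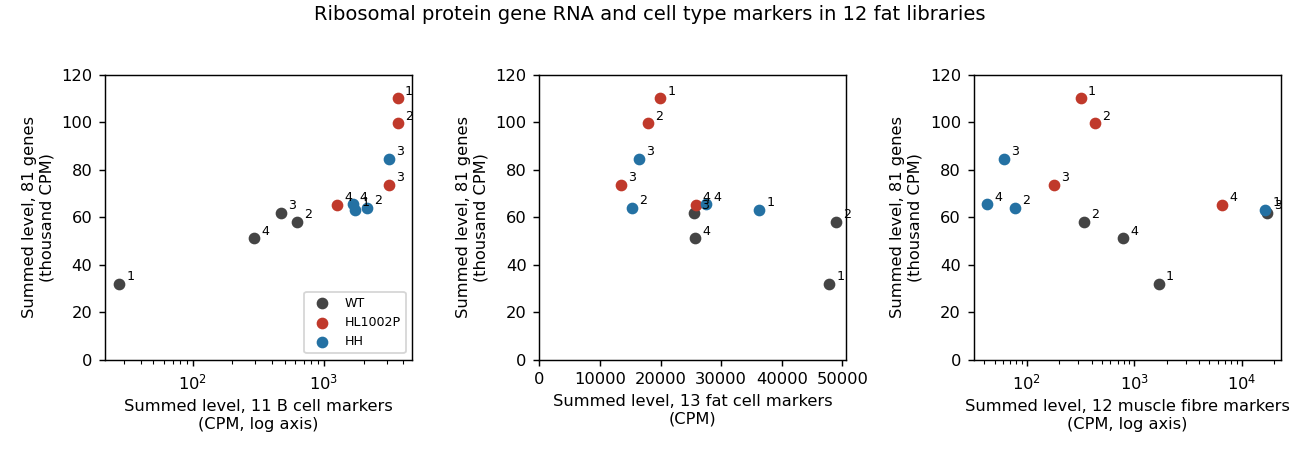
Summed level of the 81 genes (y, CPM divided by 1000) against summed markers of B cells (log axis), fat cells (linear axis) and muscle fibres (log axis) in the 12 fat libraries, each point numbered by its replicate. WT 1 is lowest on both axes of the first panel, at 27.3 CPM of B cell markers. HL1002P 1 and 2 are at the top right, at 3651 and 3682.

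Other genes of the translation apparatus were counted from lists that hold no member. Of 7 tested genes for ribosomal proteins whose names fall outside the rule, 4 rose and 0 fell in HL1002P fat, where 17.3% of all genes rose, and 3 did not pass. Among them were Fau (log2 fold change 0.91), Rps3a1 (0.91) and Gnb2l1 (0.86), which encodes the scaffold Rack1. In HH 0 of 7 passed (2 at an unadjusted p under 0.05). Of 61 ribosome biogenesis genes, 30 rose and 0 fell in HL1002P, with a median of 0.33. In HH 9 of 61 rose and 0 fell, with a median of 0.18, a share near the 12.3% of all genes that rose there. Heatr1 (0.94), Fbl (0.93), the methyltransferase of ribosomal RNA, Wdr43 (0.74) and Dkc1 (0.71), the pseudouridine synthase, had the smallest p in HL1002P. Of 15 RNA polymerase I genes 4 rose, among them Twistnb (0.62), Znrd1 (0.64) and Ttf1 (0.52), and Cd3eap fell by 0.57. In HH 0 rose, and Cd3eap fell by 0.65.

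Factors used in translation itself, and genes that control it, were counted in the same way, beside the 17.3% of all genes called higher and 14.5% called lower in HL1002P fat. Of 10 elongation factor genes 2 rose, Eef1b2 (0.79) and Eef1g (0.51), a share near that of all genes. Of 36 initiation factor genes 2 rose, Eif3f (0.48) and Eif3h (0.43), and 2 fell, Eif4g1 (-0.66) and Eif2b3 (-0.65), and the median was 0.00. Of 14 other genes with known pyrimidine tracts 4 rose, Npm1 (0.88), Hnrnpa1 (0.91), Tpt1 (0.75) and Snhg8 (0.68), and 1 fell. Of 23 genes that control translation 4 rose, including Sesn1 (0.79) and Pdcd4 (0.66), and 6 fell, including Tsc2 (-0.53) and Akt1s1 (-0.65), and the share that rose was that of all genes. Sesn1 and Pdcd4 restrain translation, Tsc2 restrains TORC1 and Akt1s1 is a TORC1 subunit. Among 77 mitochondrial ribosomal protein genes 0 rose and 1 fell in each mutant, with medians of -0.16 and -0.26. The medians of all genes were also negative, at -0.07 in HL1002P and -0.06 in HH, and in HH 8.59% of all genes fell. The cytosolic and the mitochondrial ribosome thus had medians of opposite sign in both mutants, on either side of the median of all genes.

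Among the members, the tested paralogs ending in l did not rise with the others in fat. Rps4l (chromosome 6, 148354656 to 148355598), annotated as a transcribed processed pseudogene and a copy of the X-linked small-subunit gene Rps4x, was 80.4, 77.1, 20.5 and 27.7 CPM in WT. In HL1002P it was 18.6, 21.4, 20.2 and 25.5 CPM and in HH 31.1, 11.2, 19.0 and 33.2. Only WT 1 and WT 2 stood apart, and these also had the 2 highest sums of fat cell markers. The log2 fold change was -1.26 in HL1002P (SE 0.45, adjusted p = 0.0517, and 0.0158 with DESeq2) and -1.12 in HH (SE 0.45, adjusted p = 0.0901, and 0.0381 with DESeq2). Rps4x itself changed by 0.85 (adjusted p = 0.0355) and 0.47 (adjusted p = 0.216).

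Rpl39l, a copy of Rpl39 at the nascent peptide tunnel, was 9.52, 4.2, 3.61 and 3.5 CPM in WT fat and 2.87, 1.73, 2.30 and 3.26 in HL1002P. These did not overlap, yet the log2 fold change of -1.04 (SE 0.55, adjusted p = 0.158) did not pass. Rpl39 rose by 0.69 (adjusted p = 0.0461). Rps27l, known as a target of p53, was 89.7, 127, 76.3 and 74.4 CPM in WT, 92.8, 77.4, 52.3 and 82.5 in HL1002P and 65.4, 49.1, 48.0 and 77.0 in HH, with log2 fold changes of -0.27 (adjusted p = 0.371) and -0.62 (adjusted p = 0.0718). Rpl3l was 39.2 CPM in WT 3, 30.7 in HH 1 and 14.1 in HL1002P 4, the 3 fat libraries with the most muscle fibre RNA, and at most 5.84 in the other 9. Its fold changes in fat turned sign without WT 3, from -1.48 to 0.43 in HL1002P and from -0.64 to 1.26 in HH. Rpl3 rose by 0.70 in HL1002P (adjusted p = 0.0484).

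In muscle no ribosomal protein gene passed the test in either mutant. The summed level was 20992, 18588, 22958 and 26874 CPM in WT, 26203, 22126, 23993 and 22669 in HL1002P and 25124, 22724 and 23642 in HH, and all 3 groups overlapped. Of 77 members tested, 0 were called in HL1002P (0.117% of all genes were), 2 reached an unadjusted p under 0.05 (10.5% of all genes) and DESeq2 called 0. The fold change was positive in 70 (50.6% of all genes), with a median of 0.10 against 0.00 for all genes. In HH 0 of 77 were called (0.377% of all genes) and 4 reached an unadjusted p under 0.05 (16.6% of all genes). In HH muscle DESeq2 called 1 member, Rpl3, beside 653 of all 14580 genes, where edgeR called 55. There 68 were positive (52.1% of all genes), 2 lay wholly above WT, Rpl3 and Rpl34 (7.38% of all genes), and the median was 0.12 against 0.01. Between HL1002P and HH 0 were called (0.0206% of all genes), 1 reached an unadjusted p under 0.05 (4.6% of all genes), DESeq2 called 0 and the median was 0.00.

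The small positive medians rested on single libraries. Without WT 2, the lowest of WT, they were 0.02 in HL1002P and 0.04 in HH, and without WT 4, the highest, 0.20 and 0.23. The member that had moved most in fat, Rpl13a, was 268, 224, 327 and 353 CPM in WT muscle, 368, 283, 324 and 283 in HL1002P and 372, 293 and 330 in HH. Its log2 fold changes were 0.10 and 0.18 (SE 0.15 and 0.16). Rps4l was 2.04 to 3.33 CPM in WT muscle and 3.29 to 4.78 in HL1002P (log2 fold change 0.48, adjusted p = 0.470). Rpl34 lay wholly higher in HH than in WT (log2 fold change 0.91, adjusted p = 0.252) and was -0.67 in HL1002P (adjusted p = 0.539). It was at most 1.43 CPM in every muscle library and had a log2 fold change of -1.58 between HL1002P and HH (adjusted p = 0.518). Rps2, with the lowest fold change in HH besides Rpl3l, was at -0.09 (adjusted p = 0.727). Between HL1002P and HH, Rpl29 was at 0.14 and Rplp1 at -0.26, both with an adjusted p of 0.988.

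Rpl3 and its muscle form Rpl3l had fold changes of opposite sign in muscle, though neither passed edgeR's test. Rpl3 was 50.1, 67.3, 83.2 and 88.7 CPM in WT, 181, 78.0, 106 and 115 in HL1002P and 181, 117 and 137 in HH. All 3 HH libraries lay above WT, and 3 of 4 HL1002P libraries did. The log2 fold change was 0.73 in HL1002P (SE 0.25, adjusted p = 0.349) and 1.01 in HH (2.01-fold, SE 0.26, adjusted p = 0.1, and 0.0101 with DESeq2). Rpl3l was 600, 495, 534 and 626 CPM in WT, 448, 521, 490 and 514 in HL1002P and 365, 591 and 409 in HH, so the groups overlapped. Its log2 fold change was -0.19 in HL1002P (SE 0.14, adjusted p = 0.673) and -0.31 in HH (SE 0.16, adjusted p = 0.348).

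As a share of the counts of the pair, Rpl3l made up 92.3%, 88.0%, 86.5% and 87.6% in WT muscle, 71.2%, 87.0%, 82.2% and 81.7% in HL1002P and 66.8%, 83.4% and 74.9% in HH. The means were 88.6% ± 2.54 (SD, n = 4), 80.5% ± 6.65 (SD, n = 4) and 75% ± 8.3 (SD, n = 3), and HH lay wholly below WT. The difference from WT was -8.06 percentage points in HL1002P and -13.6 in HH, with a 2-sided exact permutation p of 0.0571 in each. For HH this is the smallest p that 35 arrangements of the libraries allow. Eef1a2, the elongation factor that replaces Eef1a1 in mature muscle, took the same course: it was 80.7% ± 2.95 of its pair in WT (SD, n = 4), 74.7% ± 3.38 in HL1002P (SD, n = 4) and 70.4% ± 5.01 in HH (SD, n = 3). Its differences of -5.95 and -10.3 points had an exact permutation p of 0.0571 each, and over the 4 tests the Benjamini-Hochberg adjusted value was 0.0571. Use of the share was chosen after the levels had been seen.

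**Figure D5:**
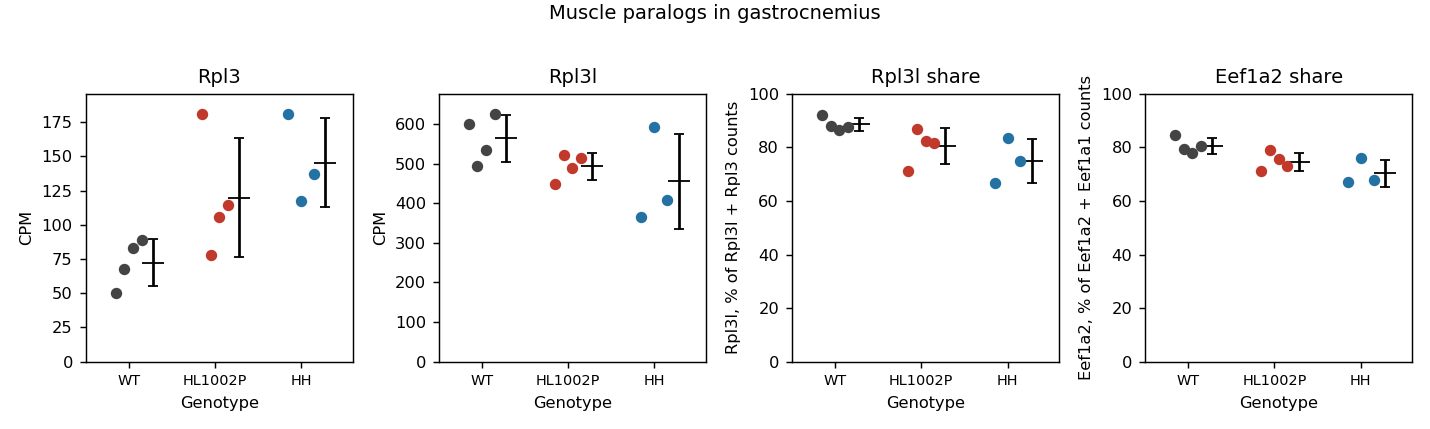
Levels of Rpl3 and Rpl3l in CPM, and the share of Rpl3l and Eef1a2 among the counts of their pairs in percent, in each gastrocnemius library, with mean and SD of each genotype. Rpl3 reached 181 CPM in 1 HL1002P and 1 HH library. The Rpl3l share was 86.5% or more in WT and 66.8% to 83.4% in HH.

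The libraries with the most Rpl3 and the lowest Rpl3l share, HL1002P 1 and HH 1, also had the highest sums of 8 markers of muscle stem cells and early muscle formation, at 330 and 412 CPM against 111 to 220 CPM in the other 9 muscle libraries. None of the 8 was called in either mutant. Fold changes were positive in 7 of the 8 in HL1002P and in 6 in HH, and the lowest were -0.99 and -1.47. Of 11 macrophage markers 0 were called in muscle, but all 11 had positive fold changes in both mutants (50.6% of all genes in HL1002P, 52.1% in HH). An unadjusted p under 0.05 was reached by 10 of the markers in HL1002P (10.5% of all genes) and 3 in HH (16.6% of all genes). Their sums were 65.3 to 180 CPM in WT, 148 to 437 in HL1002P and 197 to 267 in HH, with HH wholly above WT, and their part in the result was not tested. Without HL1002P 1 the Rpl3 fold change was 0.46, and without HH 1 it was 0.82. With the stem cell markers as a covariate it was 0.25 in HL1002P and 0.70 in HH (adjusted p = 1 and 0.303). The part of the stem cell markers was not tested beyond that fit. In fat Rpl3l made up 1.13% ± 1.4 of the pair in WT, 0.353% ± 0.564 in HL1002P and 0.678% ± 1.32 in HH (SD, n = 4 each).

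Whether a mutant effect differed between the tissues was tested on the 75 members whose average reached 1 CPM in muscle and also in fat. For HL1002P, 11 members had a lower effect in muscle than in fat and 1 a higher one, where 10.1% and 8.90% of all genes did, and the median difference was -0.70 against 0.04. The smallest p belonged to Rpl13a (-1.15, SE 0.33, adjusted p = 0.0259), Rps24 (-1.13, SE 0.33, adjusted p = 0.0260) and Rps13 (-0.97, SE 0.29, adjusted p = 0.0276). The 1 higher gene was Rps4l (1.66, SE 0.52, adjusted p = 0.0337). The count fell to 0 without muscle WT 4, fat WT 1 or fat HL1002P 1, and to 1 without fat HL1002P 2. It was 3 without fat HL1002P 3, and 4 without muscle WT 1, WT 3, HL1002P 1, HL1002P 3 or HL1002P 4. It was 5 without muscle HL1002P 2, 7 without fat WT 4, 46 without fat WT 3 and 54 without fat HL1002P 4. Calls among all genes were 2255 in the main fit, and ran from 848 without fat HL1002P 1 to 4055 without fat HL1002P 4.

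For HH 0 of 75 members differed between the tissues (7.39% of all genes did) and 8 reached an unadjusted p under 0.05 (28.2% of all genes). DESeq2 called 2 members, beside 1624 of all 11870 genes, and the median was -0.36 against 0.02. Rpl8 had the smallest p (-0.79, SE 0.29, adjusted p = 0.0864), followed by Rps4l (1.42, adjusted p = 0.0970) and Rps13 (-0.76, adjusted p = 0.110). For Rpl3 the difference was -0.04 for HL1002P and 0.48 for HH (SE 0.37 and 0.39, adjusted p = 0.946 and 0.426), and neither passed.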

How the data were processed

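The deposited table holds unnormalized read counts for 24062 symbols in 23 libraries. TopHat2 2.0.14, Bowtie2 2.2.6, featureCounts 1.4.6 and mm10 are named in the submitters' processing notes. The annotation, the strand setting and the treatment of reads with several matches are not given in the sources used here, and the kit named in the labels keeps no strand. Counts were tested with edgeR 4.0.16 in R 4.3.3 (TMM, filterByExpr, quasi-likelihood F-test, all libraries of a tissue or all 23) with Benjamini-Hochberg adjustment over all genes tested. DESeq2 1.42.0, other scalings and filters, left-out libraries and covariates were alternatives, of which the fits without the 3 fat libraries richest in muscle fibre RNA and with muscle stem cell markers as a covariate were chosen after seeing the data. The fits were tested on simulated data. Lengths came from GENCODE vM21 and start windows from RefSeq. Intervals and the limit of 3 counts cover counting error only. Members, lists and tests were chosen with earlier results of these data known. Named genes were Rpl3, Rpl3l and the paralog pairs, the 6 largest called changes in each direction of a genotype comparison (where none passed, the 2 smallest p in each direction), 5 per direction between tissues, 3 per interaction and up to 4 per other list. In muscle the replicate numbers paired HL1002P and WT libraries in part by correlation (0.089 to 0.214, above 0.1 in 3 of 4 pairs). The same held for HH and WT (0.002 to 0.280, above 0.1 in 2 of 3 pairs). In muscle the replicate numbers of HL1002P and HH paired the libraries by correlation (0.217 to 0.286 in 3 of 3 pairs). In fat the numbers of these groups did so in part (0.035 to 0.527, above 0.1 in 3 of 4 pairs). Values of a few single genes are not reported here.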

Additional observations from a re-analysis of the deposited data

Results flagged for a closer look

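Dixon's criterion at the 95% level was applied to 145 sets of 4 values, each set being 1 measure in 1 group of libraries. In 17 sets 1 library lay far from the other 3, which chance gives in about 1 in 20 independent sets. These sets are not independent, because they reuse the same libraries. The summed level also contains the genes listed, and the Rpl3l share is derived from the Rpl3l level. The 17 sets therefore cannot be compared with that chance rate. Fat HH 3 was high in the summed level of the 81 genes (84617 CPM against a median of 64740 for its group), Rplp1 (2279 CPM), Rpl13a (2024 CPM), Rps24 (1791 CPM), Rpsa (3332 CPM), Rps19 (1115 CPM), Rps13 (650.1 CPM) and Rpl10 (1463 CPM). The same library had the highest B cell marker sum of its group, at 3113 CPM, and its part in these values was not tested. Rpl3l was high in fat WT 3 (39.2 CPM), HL1002P 4 (14.1 CPM) and HH 1 (30.7 CPM), and its share of the pair in HL1002P 4 (1.198%) and HH 1 (2.66%). These libraries had 17090, 6564 and 16427 CPM of muscle fibre markers. Fat WT 1 was low in Rplp0 (736 CPM) and high in Rpl39l (9.52 CPM). Muscle HL1002P 1 was high in Rps24 (389 CPM) and Rps19 (192 CPM).

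The HL1002P effect differed between muscle and fat in 12 of 75 members by edgeR's interaction test, 11 of them lower in muscle and 1 higher. Of all genes 10.1% were called lower and 8.90% higher. Values are the muscle effect minus the fat effect in log2 units. Among those lower in muscle were Rpl13a (-1.15), Rps24 (-1.13), Rps15a (-1.03), Rps3 (-1.01), Rps13 (-0.97), Rps16 (-0.96), Rpl5 (-0.93), Rpl8 (-0.87), Rps15 (-0.80) and Rpl14 (-0.74), and the effect was higher in muscle for Rps4l (1.66). Adjusted p ranged from 0.0259 to 0.0498.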

How the results depend on the processing

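The median fold change of the members kept its sign in every comparison when single libraries were left out, except that the median between HL1002P and HH muscle lay on both sides of 0 (-0.06 to 0.04), as did that between WT tissues (-0.24 to 0.06). Counts of calls moved far more. In HL1002P fat the number of members called was 55, and it was 26 with a replicate block, 23 with sex as a covariate, 23 with the compared groups alone and 0 with lymphocyte markers as a covariate. Among all genes the calls in these fits, in the same order, were 5167, 5046, 4455, 4420 and 0. It was 71 with DESeq2 (70 higher, 1 lower), 71 with total counts and 66 with a filter at a mean of 1 CPM. With RLE factors it was 53, and without a filter 41. Among all genes the calls in these 5 fits were 6707, 4893, 5174, 5158 and 4660, in the same order. Leaving out single libraries gave 1 to 72 members. In HH fat the number called was 2, and it was 13 with DESeq2 (11 higher, 2 lower), 6 with total counts, 9 without the 3 libraries rich in muscle RNA (7 higher, 2 lower), 1 with RLE factors, 1 without a filter, 1 with a replicate block, and 0 with sex, with the compared groups alone or with lymphocyte markers. Among all genes the number called was 3391 in the main fit, 5210 with DESeq2, 3251 with total counts and 5505 without the 3 libraries. It was 2484 with sex, 2661 with the compared groups alone and 0 with lymphocyte markers. Leaving out single libraries gave 0 to 4 members. DESeq2 called 1 member in HH muscle, beside 653 of all genes. Between WT tissues total counts gave 74 in place of 22. For the HL1002P effect between tissues the 12 became 5 with a replicate block and 45 with DESeq2, and 0 to 54 without single libraries. Among all genes 2255 became 2294 with the block and 3025 with DESeq2. For HH the 0 became 2 with DESeq2, where 877 of all genes became 1624, and 0 to 2 without single libraries. The replicate numbers of the mutant fat groups paired their libraries with those of WT in part at most. For HL1002P the correlations ran from -0.312 to 0.385, above 0.1 in 3 of 4 pairs. For HH they ran from -0.391 to 0.451, above 0.1 in 2 of 4 pairs. Between HL1002P and HH fat the correlations were 0.035 to 0.527, above 0.1 in 3 of 4 pairs. The block changed no count of members called between HL1002P and HH, in muscle, where the numbers did pair, or in fat. The cause of the changes in counts was not tested.

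With lymphocyte markers as a covariate these fold changes turned sign in HL1002P fat: Rps15a -0.15, Rpsa -0.049, Rpl12 -0.24, Rps3 -0.023, Rpl3 -0.20, Rpl10 -0.21, Rpl39 -0.074, Rps4x -0.16, Rpl22 -0.14, Rpl36a -0.17, Rpl3l 0.76 and Rpl39l 0.66. Among other genes these were Gnb2l1 -0.093, Rps3a1 -0.15, Rpl22l1 -0.049, Rpl36al -0.061, Eef1b2 -0.023, Eif3h -0.030, Npm1 -0.025, Snhg8 -0.045 and Tpt1 -0.077. In HH fat they were Rpl13a -0.052, Rpl3 -0.32, Rpl10 -0.38, Rpl39 -0.41, Rps27 -0.0011, Rps4x -0.39, Rpl22 -0.49, Rpl36a -0.54, Rpl22l1 -0.32, Rpl36al -0.37, Rpl3l 1.28 and Rpl39l 0.57. The lymphocyte covariate differed between the genotypes, and with it 0 of all genes were called in either mutant against WT. These signs are therefore uncertain. With total counts the WT tissue difference turned for Rpl4 (-0.34), Rplp0 (-0.41), Rpl24 (-0.48), Rps27l (-0.47), Rpl22 (-0.93), Rpl22l1 (-1.0), Rpl36al (-0.39), Cd3eap (-0.15), Polr1b (-0.33) and Tsc2 (-0.055).

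Rpl3l turned in fat HH with sex as a covariate (0.93) and without WT 3 (1.26, against -5.82 without HH 1), and in fat HL1002P without WT 3 (0.43, against -3.28 without HL1002P 4). Between HL1002P and HH fat it turned with a replicate block (1.57), without the 3 libraries (2.52) and without HH 1 (4.35, against -2.63 without HL1002P 4). In muscle it turned with stem cell markers as a covariate in HL1002P (0.036) and, between the mutants, without HH 1 (-0.021, against 0.35 without HH 2). Its tissue difference turned without fat WT 3 for HL1002P (-0.65, against 3.10 without fat HL1002P 4) and HH (-1.60, against 5.45 without fat HH 1), and for HH without fat HH 2 (-0.075), HH 3 (-0.074) or HH 4 (-0.070). The tissue difference of Rpl3 for HL1002P turned in 7 fits without 1 library, over a range of -0.30 to 0.14. Shallow members limit precision: 3 counts correspond to 0.133 CPM in the shallowest library and 0.051 in the deepest.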
